A study of Mus musculus with 7 samples.

Results

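The iron recycling genes of splenic macrophages are described here: Hmox1 and Blvrb of heme breakdown, Slc40a1 and Slc11a1 of metal export, Tfrc of iron uptake, Fth1 and Ftl1 of iron storage, and Spic, Adgre1 and Vcam1, which mark red pulp macrophages. They were chosen by name, and each was followed with every array probe set annotated to that gene alone. Of 10 genes, 9 had such a probe set, out of 12393 genes measured in this way. Ftl1 had none of its own. The 9 genes had 16 probe sets in the comparison, and Tfrc had 3 further control probe sets. RNA came from CD11c-positive cells enriched magnetically from mouse spleen 7 days after an allogeneic hematopoietic stem cell transplant (HSCT), in which blood stem cells come from a genetically different donor. There were 3 arrays of Atg16L1 hypomorphic mice and 4 of wild-type mice, all of the C57BL/6J background, aged 9 weeks at collection by the sample protocol and 8 weeks by the description of the design. A hypomorph keeps part of a gene's function, and Atg16l1 encodes a protein that helps attach LC3 to forming autophagosomes. All 7 spleens came from transplant recipients, with no untransplanted group. Which of donor and recipient carried the Atg16l1 allele was not given in the sources used here, so it cannot be told whether the measured cells carry it. Nor do the labels tie each array to a separate animal, and p-values therefore measure only the spread between these samples, which may be technical.

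Red pulp macrophages of the spleen engulf aged red blood cells and return their iron to the blood. Heme oxygenase opens the heme ring and frees the iron, which is stored in ferritin or leaves the cell through ferroportin. Iron also acts after transcription: when it is scarce, iron regulatory proteins stabilise the mRNA of the transferrin receptor and hold back translation of the ferritin mRNAs, so a transcript level is not a protein level.

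Array medians of the 22625 tested log2 values lay between 5.46 and 5.53. Atg16l1 read 6.86 ± 0.0912 (SD, n = 3) in the hypomorph and 7.30 ± 0.0924 (SD, n = 4) in wild type, without overlap (limma adjusted p = 0.462). Itgax, which encodes CD11c, read 8.29 ± 0.269 in the hypomorph and 8.24 ± 0.170 in wild type, above the array medians in every sample. Of 18 measured genes in a red pulp macrophage list without the members, 16 had a mean above the median probe set. So had 14 of 19 erythroid and 10 of 13 dendritic cell markers. The same held for 12 of 12 neutrophil, 8 of 8 T cell, 6 of 8 monocyte and 6 of 9 pancreatic acinar markers. It also held for 4 of 5 NK and cytotoxic cell markers. It held for only 2 of 6 B cell, 2 of 6 megakaryocyte and platelet, and 5 of 14 endothelial and stromal markers. Each gene was read by its probe set of highest mean, which favours a value above that median, and the share over all genes was not computed. Transcripts of several cell types were thus read in the sorted cells. Neutrophil markers were lower in the hypomorph mean for 12 of 12 (median log2 change -0.58), with 2 at an unadjusted p under 0.05. Acinar markers of the pancreas were lower for 8 of 9 (median -2.096), with 4 at an unadjusted p under 0.05. Of all tested probe sets, 7.69% had such a p. In either list 0 markers passed the adjusted threshold. Their part in the values of the members was not tested. Fewer cells of a type and less RNA per cell cannot be told apart in such samples. The acinar transcripts were highest on wild-type replicates 4 and 3, with a summed linear intensity of 730 to 1540 in the hypomorph and 778 to 5170 in wild type.

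No iron recycling gene passed the threshold of 0.05 on limma's adjusted p (0 of 16 probe sets, lowest adjusted p = 0.644), and neither did any other probe set (0% of all tested). At an unadjusted p under 0.05 there was 1 of 16 probe sets, for Vcam1 and higher in the hypomorph, against 7.69% of all tested probe sets (4.35% higher and 3.34% lower). That count turned on single arrays and, as given in the last section, on the settings of the fit. Without wild-type replicate 4 it was 5 (both Spic sets, Slc11a1 and 2 of Vcam1), against 6.31% of all probe sets. Without hypomorph replicate 2 it was 6 (both Fth1 sets, 2 of Tfrc and 2 of Vcam1), against 13.2% of all, and it was 0 without any one of the other arrays. The groups did not overlap for 0 of 16, against 5.57% of all (3.07% higher and 2.5% lower). The log2 change, hypomorph minus wild type, was positive for 13 of 16 probe sets with a median of 0.20. Over all tested probe sets 50.7% were positive, with a median of 0.00. The members are few and several move together from array to array, so this count is a description.

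**Figure D1:**
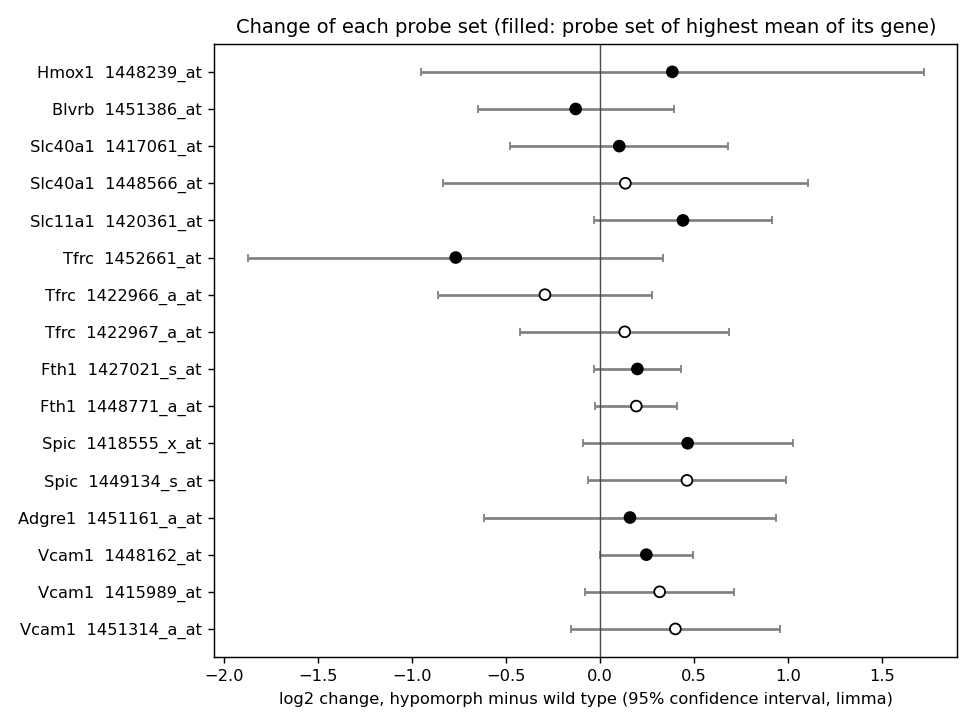
Log2 change (hypomorph minus wild type, x axis) of each of the 16 probe sets, with the 95% confidence interval of the limma fit. Filled points are the probe set of highest mean of its gene. All intervals but that of Vcam1 1448162_at include 0, and those of Hmox1 and Tfrc 1452661_at are the widest.

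Hmox1, heme oxygenase 1, the inducible enzyme that splits heme into biliverdin, carbon monoxide and iron, varied more than it differed between genotypes. Its log2 values (1448239_at, chromosome 8) were 10.37, 9.71 and 10.95 in hypomorph replicates 1 to 3, against 8.91, 11.05, 9.16 and 10.71 in wild-type replicates 1 to 4. Wild-type replicates 2 and 4 stood at the level of the highest hypomorph array, and wild-type replicates 1 and 3 lay below all hypomorph arrays. The difference among wild-type arrays alone was 4.40-fold, and that among hypomorph arrays 2.37-fold. The mean was 10.34 ± 0.623 (SD, n = 3) in the hypomorph and 9.96 ± 1.08 (SD, n = 4) in wild type. This made a log2 change of 0.39 with a 95% confidence interval from -0.95 to 1.72 (limma adjusted p = 0.876). Without wild-type replicate 1 the change was 0.04, and without wild-type replicate 2 it was 0.75.

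Blvrb, biliverdin reductase B, a flavin and biliverdin reductase abundant in red cells, followed a different order. It read 9.93, 10.25 and 9.44 in the hypomorph, against 9.90, 10.38, 9.64 and 10.09 in wild type (1451386_at, chromosome 7). Hypomorph replicate 3, which was the highest hypomorph array for Hmox1, was the lowest of all arrays for Blvrb. The log2 change was -0.13 (95% confidence interval -0.65 to 0.39, limma adjusted p = 0.895), and 0.09 without hypomorph replicate 3.

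Among the other genes of heme metabolism, 7 of 9 measured had a negative change, with a median of -0.38, and 0 of 9 passed the adjusted threshold (0 of 9 at an unadjusted p under 0.05). These were heme synthesis enzymes, most of which followed the same hypomorph arrays as Blvrb. The genes with the smallest p were Alas1, the gateway enzyme of heme synthesis outside red cells, and Alad, Urod and Uros, which act at later steps. Alad read 8.73, 9.88 and 7.75 in the hypomorph, against 9.69, 9.94, 9.10 and 9.23 in wild type. Urod read 7.95, 8.57 and 7.45 in the hypomorph, and 8.48, 8.67, 8.17 and 8.17 in wild type. Uros read 6.10, 7.73 and 5.68 in the hypomorph, and 7.00, 7.49, 6.77 and 7.03 in wild type. Hypomorph replicate 3 was the lowest of all arrays for 6 of the 7 synthesis genes. The exception was Alas1, which read 8.18, 8.30 and 9.03 in the hypomorph, against 8.76, 8.74, 9.00 and 8.82 in wild type. The breakdown genes Hmox2, the constitutive heme oxygenase, and Blvra, the main biliverdin reductase of adult tissue, had changes of 0.07 and 0.08. Blvra shared the wild-type pairs of Hmox1, at 9.61, 9.61 and 9.53 in the hypomorph and 9.07, 9.88, 9.17 and 9.89 in wild type.

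**Figure D2:**
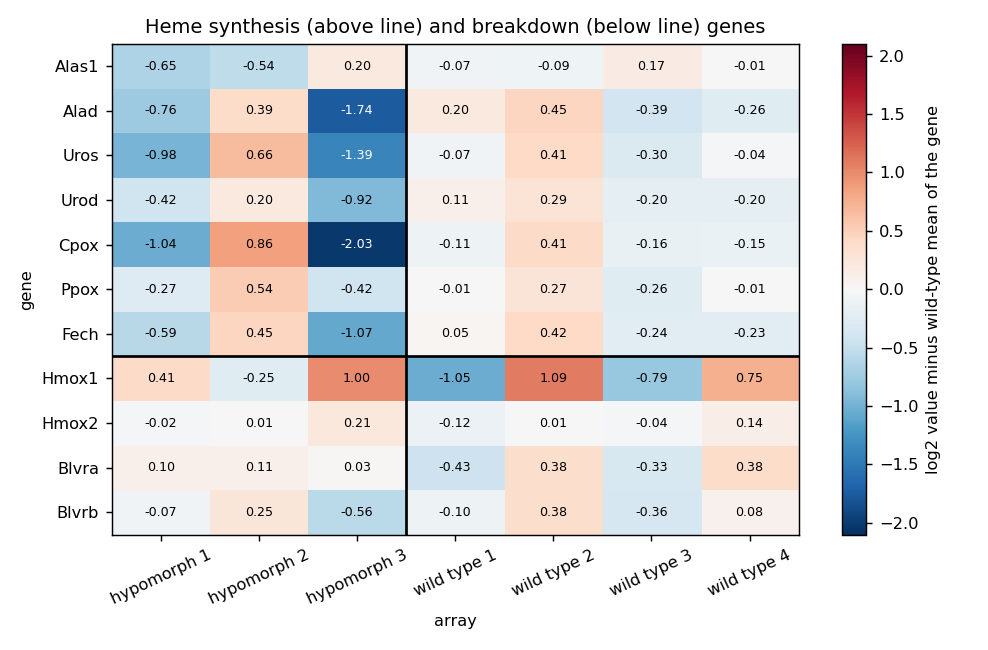
Log2 value of each heme gene minus its own wild-type mean, by array, with synthesis genes above the line and breakdown genes below it (red higher, blue lower). Hypomorph replicates 1 and 3 are low and replicate 2 high for Alad, Uros, Urod, Cpox, Ppox and Fech, whereas Hmox1 and Blvra separate wild-type replicates 2 and 4 from replicates 1 and 3.

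Slc40a1, ferroportin, which carries iron out of the cell, also spanned more among wild-type arrays than between the groups. Its brighter probe set (1417061_at, chromosome 1) read 12.40, 12.39 and 12.60 in the hypomorph, against 11.86, 12.79, 12.01 and 12.78 in wild type. The other (1448566_at) read 10.40, 10.44 and 10.70 in the hypomorph, against 9.54, 10.95, 9.77 and 11.26 in wild type. With both probe sets all hypomorph arrays lay between the wild-type pair of replicates 1 and 3 and the pair of replicates 2 and 4. The SD was 0.117 in the hypomorph and 0.497 in wild type for the brighter probe set, and it was 0.162 in the hypomorph and 0.851 in wild type for the other. The log2 changes were 0.10 (95% confidence interval -0.48 to 0.68, limma adjusted p = 0.927) and 0.14 (-0.83 to 1.11, limma adjusted p = 0.944). Their sign turned when a low wild-type array was left out, to -0.06 and -0.14 without replicate 1 and to -0.01 and -0.07 without replicate 3.

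Slc11a1, also called Nramp1, a transporter that moves divalent metals out of the phagosome, had a less scattered difference. It read 10.37, 10.51 and 10.66 in the hypomorph, against 9.63, 10.20, 9.91 and 10.54 in wild type (1420361_at, chromosome 1). Wild-type replicate 4 lay within the hypomorph range and the other wild-type arrays lay below it. The mean was 10.51 ± 0.142 (SD, n = 3) in the hypomorph and 10.07 ± 0.391 (SD, n = 4) in wild type, a log2 change of 0.44 or 1.36-fold. The 95% confidence interval ran from -0.03 to 0.92 (limma adjusted p = 0.644), with a two-sided p of 0.143 in an exact permutation test, where 7 arrays cannot go below 0.0286. With 1 array left out the change stayed between 0.29 and 0.60.

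Tfrc, the transferrin receptor, brings transferrin-bound iron into cells and is used most heavily by red cell precursors. Its brightest probe set (1452661_at, chromosome 16) read 9.29, 10.42 and 8.11 in the hypomorph, against 10.09, 10.41, 9.77 and 9.89 in wild type. Hypomorph replicate 2 was level with the highest wild-type array, while replicates 1 and 3 were below all wild-type arrays. The spread was 4.94-fold among hypomorph arrays and 1.55-fold among wild-type arrays. The mean was 9.27 ± 1.15 (SD, n = 3) in the hypomorph and 10.04 ± 0.279 (SD, n = 4) in wild type, a log2 change of -0.77 (95% confidence interval -1.87 to 0.34, limma adjusted p = 0.684). Leaving out hypomorph replicate 2 gave -1.34 and leaving out replicate 3 gave -0.19, and the mean change over the 3 Tfrc probe sets of the comparison was -0.31.

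The other Tfrc probe sets were dimmer, and the array design carries 3 of them as controls for the 3-prime end, the middle and the 5-prime end of the mRNA. Of all 6 probe sets, hypomorph replicate 3 was the lowest array for 6 and hypomorph replicate 2 the highest for 5. The 1422966_a_at values were 5.22, 5.82 and 5.04 in the hypomorph, against 5.74, 6.06, 5.18 and 5.63 in wild type, with a log2 change of -0.29. The 1422967_a_at values were 3.83, 4.83 and 3.81 in the hypomorph, against a range of 3.94 to 4.10 in wild type. This last set had a log2 change of 0.13, and of -0.21 without hypomorph replicate 2, so the probe sets differed in sign through that array. The 3-prime control set read 4.83, 5.36 and 4.35 in the hypomorph and 5.07, 5.13, 4.92 and 4.94 in wild type. The middle and 5-prime sets stayed between 2.72 and 4.24, close to the lower quartiles of the arrays (3.31 to 3.39) and of little use for the size of a difference.

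**Figure D3:**
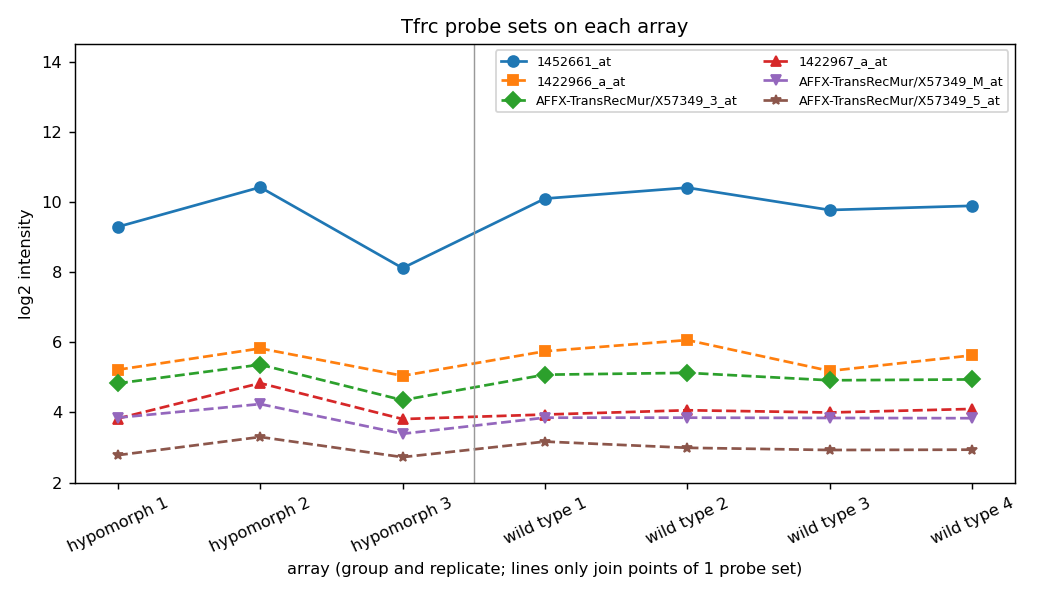
Log2 intensity of the 6 Tfrc probe sets on each array (hypomorph replicates 1 to 3, then wild-type replicates 1 to 4). Hypomorph replicate 3 is the lowest array for each of the 6 probe sets, and replicate 2 the highest for 5 of them.

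Tfrc followed the erythroid markers closely across arrays. The mean log2 level of the 19 measured erythroid genes was 6.84, 8.03 and 5.79 in the hypomorph, against 7.59, 7.97, 7.27 and 7.36 in wild type. Over the 7 arrays Pearson's r with the brightest Tfrc probe set was 0.997 (exact permutation p = 0.000198, adjusted 0.00356). Spearman's rho was 1, the same order of arrays in both (exact permutation p = 0.000397, adjusted 0.00715). Without hypomorph replicates 3 and 2, the arrays farthest from the median, r was 0.996. The adjusted values cover 18 relations, of 9 genes with 2 marker lists. For Blvrb r was 0.847 (exact permutation p = 0.0115, adjusted 0.0357) and rho 0.786 (exact permutation p = 0.0480, adjusted 0.198), with r at 0.620 without the same arrays. Of the 19 erythroid genes, 17 had a negative change, with a median of -0.70, and 0 passed the adjusted threshold. At an unadjusted p under 0.05 there was 1, against 7.69% of all probe sets. Those with the smallest p between the genotypes were Hba-a2, Car1, Gata1 and Ermap, with changes of -0.21, -0.60, -0.88 and -0.70, and Hba-a2 was dim on every array (3.43 to 3.88). The summed linear intensity of the list ran from 3568 to 14275 in the hypomorph and from 9284 to 15879 in wild type. Hypomorph replicate 3 was the lowest array for 16 of the 19 genes. The part of red cell precursors in the Tfrc and Blvrb values was not tested.

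A start of Tfrc is shown for a motif that few starts hold. The promoter table of RefSeq (GRCm38.p6) holds 8 starts of 5 of the 9 measured genes. It has no entry for Hmox1, Slc40a1, Adgre1 or Vcam1. The core of the hypoxia response element, ACGTGC on either strand, begins within 250 bases before 1 of these 8 starts, for Tfrc, and before 4.92% of all 32851 starts. The stretch that holds it lies at chr16:32608872-32608901 on the plus strand, with the match in capitals. Its 30 bases begin at position -24 relative to the start, so the match runs past the start. A match describes letters, not a site in use.
Tfrc: gggggagcacctcggtaggtgtACGTGCgg

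Fth1, the ferritin heavy chain, which oxidises iron as it enters the ferritin shell, had the smallest wild-type spread among the probe sets of highest mean. Its brighter probe set (1427021_s_at, chromosome 19) read 13.58, 13.26 and 13.57 in the hypomorph, against 13.14, 13.32, 13.31 and 13.31 in wild type. Hypomorph replicates 1 and 3 were above all wild-type arrays and replicate 2 was among them. The other probe set (1448771_a_at) read 13.20, 12.94 and 13.22 in the hypomorph, against 12.81, 12.95, 13.04 and 12.89 in wild type, with the same division of the hypomorph arrays. The log2 changes were 0.20 (95% confidence interval -0.03 to 0.43, limma adjusted p = 0.651) and 0.19 (-0.02 to 0.41, limma adjusted p = 0.646), or 1.15-fold and 1.14-fold. Without hypomorph replicate 2 they were 0.31 and 0.28, with adjusted p = 0.194 and 0.228. Fth1 ran against the erythroid level, with r = -0.777 (exact permutation p = 0.0329, adjusted 0.0658) and rho = -0.643 (exact permutation p = 0.139, adjusted 0.278), and r = -0.681 without hypomorph replicates 3 and 2.

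The Fth1 start is shown for its GC boxes, the letters that transcription factors of the Sp family bind. They (GGGCGG on either strand) occur before 3 of the 8 member starts, 1 each for Fth1, Blvrb and Tfrc, and before 32.7% of all starts. The 250 bases before the Fth1 start lie at chr19:9982396-9982645 on the plus strand and hold 3 of them, in capitals. The core of the antioxidant response element to which Nrf2 and Bach1 bind, TGACNNNGC on either strand, was found before 0 of the 8 starts and before 10.2% of all. That says only that these letters are not in this window for the genes searched, and Hmox1 was not among them.
Fth1: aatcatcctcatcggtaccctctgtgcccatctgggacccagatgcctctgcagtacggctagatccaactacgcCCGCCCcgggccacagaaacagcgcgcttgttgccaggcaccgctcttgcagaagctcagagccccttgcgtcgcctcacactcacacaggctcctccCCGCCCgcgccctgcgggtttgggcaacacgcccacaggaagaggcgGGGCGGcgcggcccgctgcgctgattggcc

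Ftl1, the ferritin light chain, helps form the iron core inside ferritin. It was read by 3 probe sets that also name the related sequence Ftl1-ps2, 1 of them with microRNA genes too, so they are not values of Ftl1 alone. The brightest (1418364_a_at) read 12.42, 12.13 and 12.55 in the hypomorph, against 12.00, 12.33, 12.10 and 12.36 in wild type. As for Fth1, hypomorph replicates 1 and 3 were above all wild-type arrays and replicate 2 was not. Among wild-type arrays, replicates 2 and 4 read higher than replicates 1 and 3. The log2 changes of the 3 probe sets were 0.17, 0.16 and 0.20 (limma adjusted p = 0.734, 0.778 and 0.678).

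**Figure D4:**
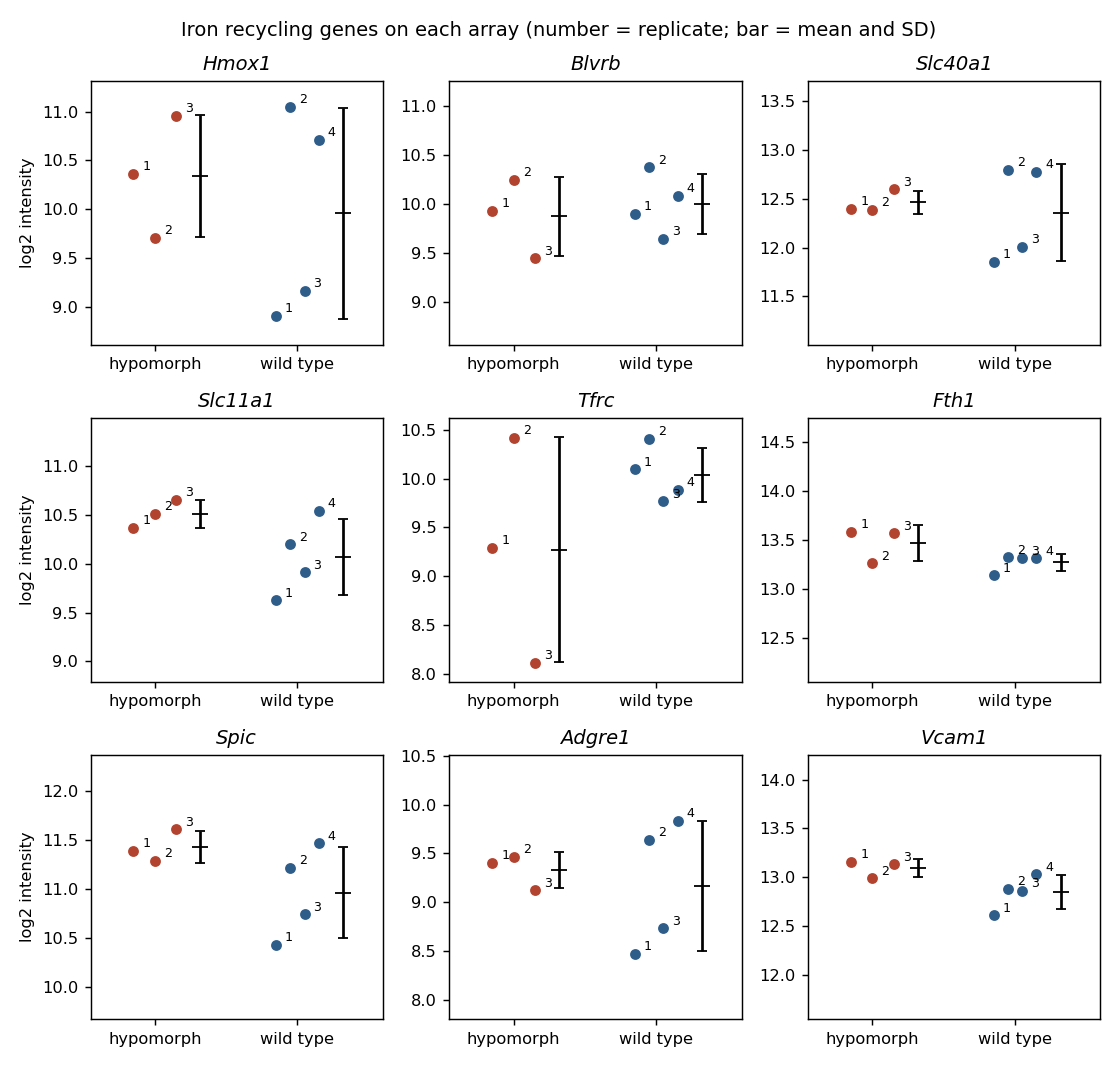
Log2 intensity of the 9 genes on each array, with the probe set of highest mean for each gene, hypomorph (red) left of wild type (blue). Numbers are replicates, bars the mean and SD, and every panel spans the same log2 range. Hmox1, Slc40a1 and Adgre1 split wild-type replicates 2 and 4 from 1 and 3, Tfrc spreads among the hypomorph arrays, and Fth1 and Vcam1 vary least.

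Spic encodes an Ets-family transcription factor that red pulp macrophages of the mouse need for their development and that heme induces. Its probe set of highest mean (1418555_x_at, chromosome 10) read 11.39, 11.29 and 11.61 in the hypomorph, against 10.43, 11.22, 10.74 and 11.47 in wild type. The other (1449134_s_at) read 11.27, 11.14 and 11.57 in the hypomorph, against 10.37, 10.99, 10.73 and 11.36 in wild type. With both, only wild-type replicate 4 reached into the hypomorph range. The log2 changes were 0.47 (95% confidence interval -0.09 to 1.03, limma adjusted p = 0.656) and 0.46 (-0.06 to 0.99, limma adjusted p = 0.648), each 1.38-fold. The exact two-sided permutation p was 0.229 and 0.171. Changes stayed between 0.29 and 0.64 with 1 array left out.

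Adgre1 encodes a surface receptor by which mouse macrophages are commonly recognised. It read 9.40, 9.47 and 9.12 in the hypomorph, against 8.47, 9.64, 8.73 and 9.83 in wild type (1451161_a_at, chromosome 17). All hypomorph arrays lay inside the wild-type range, between the same pairs as for Slc40a1. The log2 change was 0.16 (95% confidence interval -0.61 to 0.94, limma adjusted p = 0.914), and -0.07 without wild-type replicate 1.

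Vcam1, an adhesion molecule of red pulp macrophages and of activated endothelium, had positive changes on all 3 of its probe sets. Its brightest probe set (1448162_at, chromosome 3) read 13.16, 12.99 and 13.13 in the hypomorph, against 12.61, 12.88, 12.86 and 13.03 in wild type. Only wild-type replicate 4 overlapped with the hypomorph arrays. The log2 change was 0.25 (95% confidence interval 0.00 to 0.49), with an unadjusted p = 0.0495 and an adjusted p = 0.644 in the limma fit. The exact two-sided permutation p was 0.0857. A further probe set (1415989_at) read 11.91, 11.70 and 11.71 in the hypomorph, against 11.09, 11.39, 11.46 and 11.87 in wild type, with a change of 0.32. The last (1451314_a_at) read 10.85, 10.05 and 10.91 in the hypomorph, against 9.83, 10.37, 10.14 and 10.46 in wild type, with a change of 0.40. On this set hypomorph replicate 2 lay among the wild-type arrays, and without it the change was 0.68 (adjusted p = 0.187).

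Endothelial and stromal markers had the same sign of change as Vcam1. Of 14 measured, 13 had a positive change, with a median of 0.28, and 0 passed the adjusted threshold. At an unadjusted p under 0.05 there were 4, against 7.69% of all probe sets. Their summed linear intensity was 887 to 917 in the hypomorph and 499 to 851 in wild type. The groups did not overlap for 3 of them, against 5.57% of all probe sets: Pecam1 and Cdh5, adhesion molecules of endothelium, and Sparc, a matrix protein, with changes of 0.42, 0.52 and 0.64. Pdgfra, a receptor of stromal cells, had a change of 0.47 with overlap. Mean values of 4 of the 14, among them the collagen gene Col1a1, were below the lower quartile of all probe sets. The part of these cells in the Vcam1 values was not tested.

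The red pulp macrophage list outside the members varied in the same way as Hmox1, Slc40a1 and Adgre1. Some of its genes, such as Csf1r, Cd68, Marco and Siglec1, are not particular to red pulp macrophages. Wild-type replicates 2 and 4 both read higher than replicates 1 and 3 for 12 of 16 member probe sets and 17.9% of all tested probe sets. The same order held for 8 of the 9 member genes and 16 of 18 macrophage markers. For Fth1 the margin was small, at 13.3127 on replicate 4 and 13.3108 on replicate 3. These pairs were read from the member values, so the member counts only describe them. The mean log2 level of the 18 markers was 9.95, 9.59 and 9.71 in the hypomorph, against 8.93, 9.88, 9.23 and 10.05 in wild type. Their summed linear intensity was 35754 to 42906 in the hypomorph and 23343 to 43457 in wild type. Hypomorph arrays thus lay within the wild-type range. Of the 18, 17 had a positive change, with a median of 0.23, and 0 passed the adjusted threshold. At an unadjusted p under 0.05 there was 1, against 7.69% of all probe sets. Those with the smallest p were the mannose receptor Mrc1, the complement genes C1qc and C1qa, and the Fc receptor Fcgr1, with changes of 0.30, 0.39, 0.33 and 0.48. Mrc1 was the 1 gene of the 18 without overlap, against 5.57% of all probe sets, so the count was near that share. It read 12.47, 12.46 and 12.53 in the hypomorph and 11.88, 12.21, 12.24 and 12.40 in wild type.

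Across the 7 arrays, Pearson's r with the mean macrophage level was 0.933 for Adgre1, 0.914 for Slc40a1, 0.893 for Spic and 0.881 for Hmox1 (exact permutation p = 0.00337, 0.00595, 0.0119 and 0.00913, adjusted 0.0303, 0.0357, 0.0357 and 0.0357). For Slc11a1 and Vcam1 it was 0.813 and 0.807 (exact permutation p = 0.0292 and 0.0244, adjusted 0.0657 and 0.0627). Spearman's rho was 0.821 for Adgre1 and Slc40a1, 0.714 for Spic and Hmox1, 0.607 for Slc11a1 and 0.750 for Vcam1, and none of these 6 passed after adjustment (lowest adjusted exact permutation p = 0.198). Without wild-type replicates 1 and 3, the arrays farthest from the median, r was 0.616 for Adgre1, 0.516 for Slc40a1 and 0.471 for Hmox1. It was 0.05 for Spic, 0.08 for Vcam1 and -0.325 for Slc11a1. The relation was thus weaker without those arrays for all 6 genes, and near 0 or reversed for Spic, Vcam1 and Slc11a1. No p was computed without those arrays. Fth1, Blvrb and Tfrc had r of 0.597, 0.325 and -0.170 with the macrophage level (exact permutation p = 0.141, 0.475 and 0.724). The part of macrophage content in the values of the members was not tested.

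**Figure D5:**
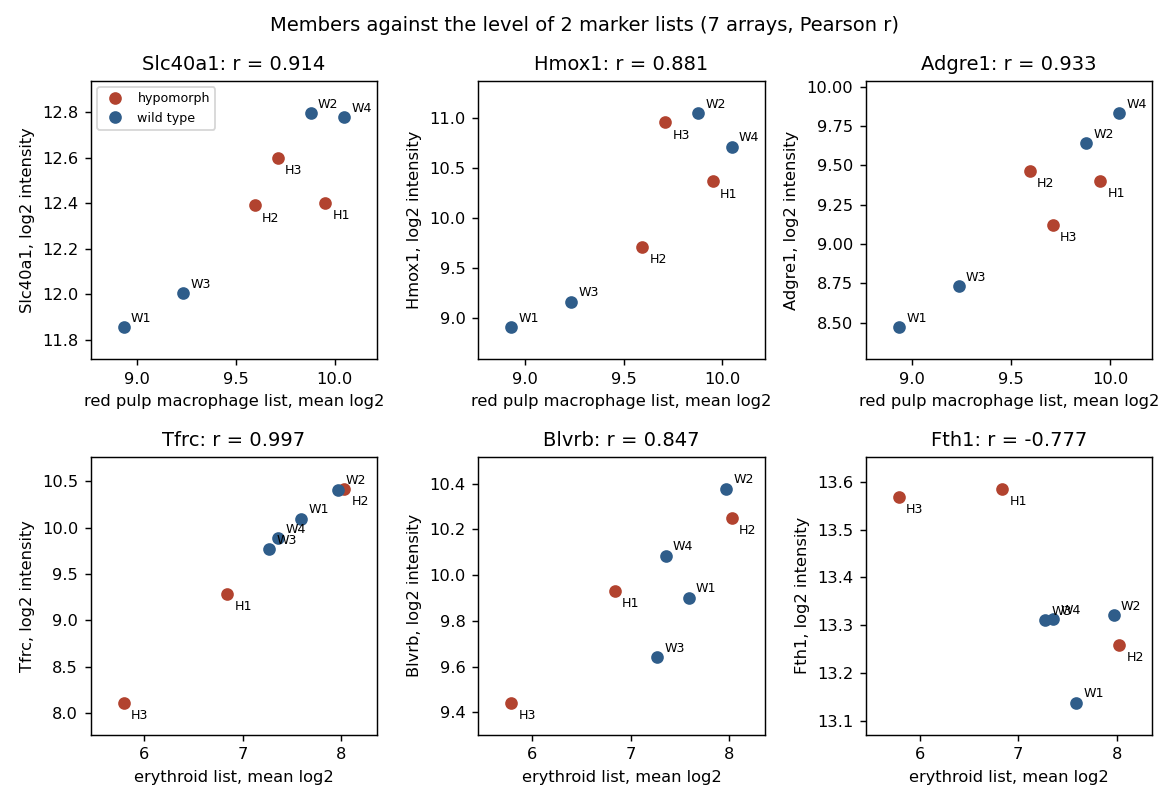
Log2 intensity of a member (y axis) against the mean log2 level of the red pulp macrophage list (upper row: Slc40a1, Hmox1, Adgre1) or the erythroid list (lower row: Tfrc, Blvrb, Fth1), with hypomorph arrays H1 to H3 in red and wild-type arrays W1 to W4 in blue. The Tfrc points lie close to a line (r = 0.997), and the upper panels are stretched by W1 and W3.

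Other genes of iron handling showed no common direction. Of 23 measured, 12 had a positive and 11 a negative change, with a median of 0.00, and 0 passed the adjusted threshold (2 at an unadjusted p under 0.05, against 7.69% of all probe sets). Tfr2, a second transferrin receptor, known from liver and red cell precursors, read 6.34, 7.07 and 5.47 in the hypomorph, against 7.34, 7.65, 7.03 and 7.03 in wild type. Its change of -0.97 came with the same low hypomorph replicate 3 as Tfrc. Flvcr1, a transporter described as a heme exporter, and Slc39a14, an importer of iron and zinc, had changes of 0.26 and 0.22. Aco1, which encodes iron regulatory protein 1, had a change of -0.21. The hepcidin gene Hamp, whose product removes ferroportin from the cell surface, read 2.46 to 2.90 over all arrays, below the lower quartiles.

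Genes of the heme and oxidant response, many of which share with Hmox1 control by Bach1 or Nrf2, had changes of both signs. Of 14 measured, 9 had a positive and 5 a negative change, with a median of 0.06, and 0 passed the adjusted threshold. At an unadjusted p under 0.05 there was 1, against 7.69% of all probe sets. Srxn1, sulfiredoxin, read 5.66, 5.71 and 5.83 in the hypomorph, against 5.07, 5.39, 5.44 and 5.49 in wild type. Its change was 0.39 (limma adjusted p = 0.644). It was the 1 gene of the 14 without overlap, against 5.57% of all probe sets. Nqo1, a quinone reductase and a common marker of Nrf2 activity, had a change of -0.40. Mafg, a partner of Nrf2 and Bach1, had one of 0.25, and the thioredoxin reductase gene Txnrd1 by 0.25. The mean log2 level of this list ran from 7.67 to 7.75 in the hypomorph and from 7.61 to 7.69 in wild type.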

How the data were processed

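CD11c-positive spleen cells of 7 samples were hybridized to an Affymetrix Mouse430A GeneChip each, from 100 ng of total RNA, per the labels' protocols. The table deposited by the authors holds log2 values, 1 for each probe set on an array, and the submitters' processing notes name Affymetrix Power Tools. The version, summary method and normalization were not given in the sources used here. Array medians were nearly equal. The direction of differences is that of the labels.

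Of 22690 probe sets, 64 controls and 1 without a value were left out of the fit. Names came from the platform annotation, updated by Entrez identifier in RefSeq genes of GRCm38.p6 (20350 of 20379 probe sets naming 1 gene matched, with 691 naming several and 1555 naming none). The deposited log2 values were fitted by lmFit and eBayes of limma 3.58.1 (R 4.3.3) to 2 group means, with Benjamini-Hochberg adjustment over all 22625 probe sets. Single values were compared by exact permutation over 35 splits, and correlations by exact permutation of pairings. The fit was tested on simulated data 10 times, each with 200 changed among 22625. It recovered 39.9%, 82.5% and 97.3% of those changed by 0.5, 1 and 2 on the log2 scale, and 4.50% of calls were false. The noise was normal and independent for each probe set, whereas in the real data several genes moved together from array to array. The rates also hold only for this mix of planted sizes. They are for simulated probe sets in general and do not carry over to the members, most of which scattered more. For 13 of 16 member probe sets the wild-type SD was above the median over all tested probe sets. Standard errors of member changes ran from 0.0935 (Fth1 1448771_a_at) to 0.574 (Hmox1), against a median of 0.0998 over all tested. Recovery for the members was not tested. The number of arrays limits the precision. A gene is represented by its probe set of highest mean, and up to 4 genes of smallest p are named per list. Hmox2, Blvra, Hamp and Col1a1 were named for their role or after their values were seen. Alternatives were other scalings, variance models, weights, a filter on dim probe sets, a block and single arrays left out. Probe sets whose identifiers end in _s_at, _a_at or _x_at can bind several transcripts. The members and lists were chosen with earlier results of these data known.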

Additional observations from a re-analysis of the deposited data

Results flagged for a closer look

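Among 19 member probe sets examined for a single distant array in the wild-type group of 4, 1 stood out. Wild-type replicate 1 read 13.14 for Fth1 (1427021_s_at), lower than the other wild-type arrays at 13.32, 13.31 and 13.31, with a gap of 0.943 of the group's range, above Dixon's critical value. Chance flags about 1 in 20 groups. The other Fth1 probe set was lowest on the same array (12.81) and was not singled out.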

How the results depend on the processing

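The median log2 change over the 16 probe sets, 0.20, stayed positive under all 14 alternatives, from 0.13 to 0.35 with 1 array left out, and at 0.27 without wild-type replicates 3 and 4 (the highest in acinar transcripts, chosen after the data were seen). Of 223 values of single probe sets, 216 kept their sign and side of the threshold, 0 passed it, and 7 turned their sign, all when 1 array was left out. These ranges were -0.0636 to 0.249 and -0.14 to 0.43 for the probe sets of Slc40a1, -0.316 to 0.0877 for Blvrb, -0.21 to 0.31 for Tfrc 1422967_a_at and -0.0714 to 0.382 for Adgre1. Correlations without both outlying arrays turned sign for Slc11a1 (-0.325) and Tfrc (0.0667) with the macrophage list and for Hmox1 (0.165) and Slc40a1 (0.220) with the erythroid list.

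Over all probe sets, 0 higher and 0 lower passed the adjusted threshold. There were 3 higher with array weights, 5 with probe sets above the median brightness alone, 5 with median centring, 5 with trend and robust settings, and 0 to 2 with 1 array left out, none of them a member. Unadjusted counts of 984 higher and 755 lower were 559 and 498 with that filter, where fewer were tested. With 1 array left out they ran from 598 to 1411 higher and from 431 to 1578 lower, and without wild-type replicates 3 and 4 together 502 were lower. With the replicate block the median was 0.35, the same as without wild-type replicate 4, which has no partner there. The block changed no call on the adjusted p. At an unadjusted p under 0.05 it gave 6 of 16 member probe sets, against 8.23% of all probe sets. Without the block it was 1 of 16, against 7.69% of all. Leaving out wild-type replicates 3 and 4 together gave 4 of 16, against 5.64% of all. Median centring and the trend and robust settings gave 2 of 16 each, against 7.36% and 7.58% of all. Array weights and 32 added to the linear value gave 0 of 16 each, against 8.45% and 7.39%. The filter on dim probe sets gave 0 of 15, against 9.34%. Same-numbered arrays correlated at 0.102, 0.0977 and 0.339 in their deviations, and not every array was closest to its own number, so the numbers were not used as pairs. Where a cause is not given, the cause was not tested. The number of arrays and, for the dimmer Tfrc probe sets, signal near the lower quartile limit these values.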
